A study of Mus musculus with 7 samples.

Results

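Csk, Pag1, Ptpra, Cbl, Ptk2, Ptk2b, Pxn, Bcar1, Cttn and Arhgap35 encode regulators of Src family kinases and proteins that these kinases phosphorylate at sites of cell adhesion. The 10 genes were taken by symbol from a deposited table of 23282 entries. Each symbol occurred once, and all 10 were among the 13122 genes that passed the filter on low counts. RNA was measured in cells labelled as glioblastoma tumour cells of adult C57BL/6 mice that carried tdTomato, a red fluorescent protein, and were isolated on it by cell sorting. The groups were WT (3 libraries) and FYN-KO (4 libraries, genotype FYN-KO in the labels). Per the series' design text, each mouse gave its own sort and library. The sources used here do not give how Fyn was disrupted, how the tumours were induced or what drove tdTomato. The libraries were of the QuantSeq kind, which reads tags near the 3' ends of polyadenylated RNA, so a transcript gives about 1 tag whatever its length.

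Src family kinases are held closed by phosphorylation of a tyrosine near their C terminus. Csk is the kinase that adds this phosphate, Pag1 is a membrane adaptor that recruits Csk, and Ptpra is a receptor phosphatase that removes the phosphate. Cbl is a ubiquitin ligase that marks active tyrosine kinases for degradation. At integrin contacts, Ptk2 (focal adhesion kinase) or its relative Ptk2b (Pyk2) binds a Src family kinase, and the pair phosphorylates the adaptors Pxn (paxillin) and Bcar1 (p130Cas). Cttn (cortactin) binds branched actin, and Arhgap35 is a GTPase-activating protein. Both are phosphorylated by Src family kinases. In glial cells Fyn is best known for linking adhesion and axonal signals to the cytoskeleton and to myelination. RNA levels report neither phosphorylation nor activity.

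The libraries held 8976745 to 16371244 counts, and values are counts per 1000000 counts of the library (CPM). Genes with a count numbered 7723, 9924 and 9704 in WT replicates 1, 2 and 3, and 13535 to 14548 in FYN-KO. The entry Rn45s took 230331 to 372449 counts in WT and 946692 to 1519503 in FYN-KO. The part of the lower gene numbers of WT in the results was not tested. Fyn, the targeted gene, stood at 1039, 719.9 and 1604 CPM in WT, against 105, 106, 74.5 and 190 CPM in FYN-KO (edgeR log2 fold change -3.43 ± 0.51, approximate SE, adjusted p = 0.0121), and tags outside the disrupted part would be counted. The FYN-KO libraries stood apart in markers of other tissues. The 6 genes of steroid-producing cells summed to 0 to 285 CPM in WT, where Nr5a1, Cyp17a1 and Mrap had no count, and to 21660 to 24603 CPM in FYN-KO. The 7 genes of ovarian granulosa cells summed to 0 to 7.21 CPM in WT, where Amh, Fshr, Inhba, Lhcgr and Cyp19a1 had no count, and to 747 to 1108 CPM in FYN-KO. Inha had the highest FYN-KO mean of these 7 (591 CPM). Amh and Fshr were low in FYN-KO too (means of 0.266 and 4.41 CPM), and not every FYN-KO library had a count of them. The 6 genes of oligodendrocyte progenitors summed to 7993 to 11634 CPM in WT, against 133 to 852 CPM in FYN-KO, the 5 of oligodendrocytes to 2584 to 19697 and 74.9 to 609.7 CPM, and the 7 of astrocytes and radial glia, with Aqp4 at 0 in FYN-KO, to 2279 to 3703 and 85.5 to 193 CPM. The 5 fibroblast markers summed to 1.17 to 545 CPM in WT and 1268 to 1789 CPM in FYN-KO, the 4 mural markers to 40.3 to 355 and 418 to 579 CPM, and the 4 erythroid markers to 25.6 to 665 and 1058 to 1131 CPM. The steroid, granulosa and glial levels of the libraries labelled FYN-KO go against their label as glioblastoma cells, so genotype and the kind of cells collected cannot be told apart in any value set between the groups. These marker levels move with the group in each comparison below, and their part in the results was not tested. In such bulk RNA, fewer cells of a type and less RNA per cell cannot be told apart.

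Of the 10 genes, Cbl was higher in FYN-KO, none was lower, and 9 did not pass the edgeR quasi-likelihood test with Benjamini-Hochberg adjustment over all 13122 genes. The same test called 22.5% of all genes, 19.0% as higher and 3.51% as lower. Cbl had under 10 counts in each WT library, so it passed the filter on low counts through FYN-KO alone. It could thus be called only as higher. Pxn, Bcar1 and Arhgap35 were lower in each FYN-KO library than in any WT library but missed the threshold (adjusted p = 0.0544, 0.0597 and 0.0682). With Cbl, 4 of 10 genes had groups that did not overlap in CPM, against 37.4% of all genes tested. In the direction of FYN-KO below WT the count was 3 of 10 against 7.32%, and in the other direction 1 of 10 against 30.1%. The median log2 fold change was -0.80 over the 10 genes and 0.45 over all genes tested. Without an adjustment, 4 of the 10 genes had p under 0.05, as had 4379 of all 13122.

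**Figure D1:**
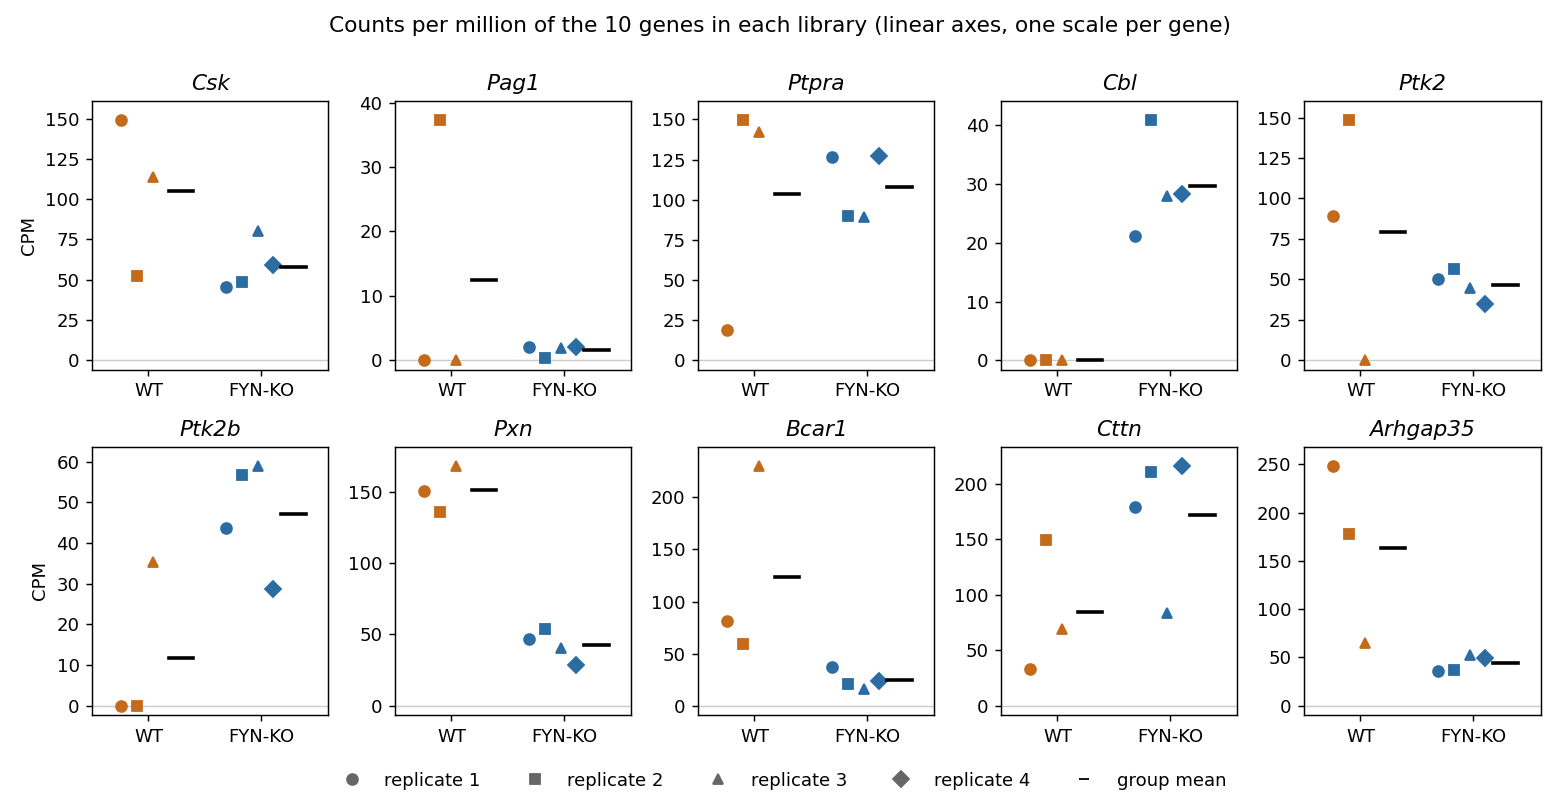
CPM of each of the 10 genes in the 3 WT (orange) and 4 FYN-KO (blue) libraries, with 1 marker shape per replicate number, a black bar at the group mean and a separate linear axis for each gene. Cbl lies at or near 0 in WT and at 21.2 to 40.9 CPM in FYN-KO, and Pxn at 136 to 168 and 28.9 to 53.8 CPM. Pag1, Ptk2 and Ptk2b each have WT libraries at or near 0 beside WT libraries with 35.3 CPM or more.

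Replicate libraries of WT were far apart for several of these genes, and those of FYN-KO were not. Of the 30 WT values of the 10 genes, 8 were of 3 counts or fewer, the other 22 were of 237 counts or more, and none lay between. Of the 40 FYN-KO values, 1 was of 3 counts or fewer and the lowest of the others was 17 counts. Among all tested genes with a mean of 10 CPM or more, 32.6% of WT values and 1.59% of FYN-KO values were of 3 counts or fewer. The SD of log2 of CPM plus 1 over replicates had a median of 1.05 in WT and 0.38 in FYN-KO for the 10 genes, and of 2.60 and 0.41 for those 9728 tested genes. It was higher in WT for 8 of the 10 genes, all but Cbl and Pxn, and for 86.7% of the 9728. The counts of 3 or fewer fell in Pag1, Cbl, Ptk2 and Ptk2b.

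The promoters are shown for Cbl, the gene that passed the test, and for Bcar1 and Arhgap35, whose values lay lower in FYN-KO without overlap but did not pass. Each is the 250 bases before a transcript start on the strand of the gene, 5' to 3', from RefSeq (GRCm38.p6). The table held windows for 5 of the 10 genes, and for Bcar1 the second of its 2 starts is shown, an internal start whose downstream bases lie in a GENCODE transcript. All 3 genes lie on the minus strand. The windows are chr9:44234047-44234296, chr8:111732137-111732386 and chr7:16614994-16615243. Capitals mark matches to the GC box GGGCGG on either strand.
Cbl: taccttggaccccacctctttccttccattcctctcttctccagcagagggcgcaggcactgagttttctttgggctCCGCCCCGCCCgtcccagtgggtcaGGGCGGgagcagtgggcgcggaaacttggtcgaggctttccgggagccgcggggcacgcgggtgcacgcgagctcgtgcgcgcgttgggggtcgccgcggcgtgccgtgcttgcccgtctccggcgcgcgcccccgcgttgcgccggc
Bcar1: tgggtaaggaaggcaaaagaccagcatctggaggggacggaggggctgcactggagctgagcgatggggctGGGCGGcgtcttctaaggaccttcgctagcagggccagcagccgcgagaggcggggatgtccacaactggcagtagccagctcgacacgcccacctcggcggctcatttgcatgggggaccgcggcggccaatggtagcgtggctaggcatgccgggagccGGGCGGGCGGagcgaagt
Arhgap35: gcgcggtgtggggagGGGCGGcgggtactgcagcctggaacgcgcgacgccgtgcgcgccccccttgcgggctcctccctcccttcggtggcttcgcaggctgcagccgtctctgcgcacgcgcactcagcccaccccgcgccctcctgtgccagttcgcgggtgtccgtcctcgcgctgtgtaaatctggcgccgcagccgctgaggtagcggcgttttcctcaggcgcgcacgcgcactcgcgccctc
The Cbl, Bcar1 and Arhgap35 windows held 3, 3 and 1 GC boxes, some of them overlapping, and 32.7% of all 32851 windows held at least 1. Their GC content was 71.6%, 67.2% and 73.6%, against a median of 52.4%, and they held 33, 21 and 36 CG dinucleotides against a median of 6. The letters GGAATG of the TEAD motif, on either strand, occurred once in the Cbl window and in neither of the others (12.6% of all windows). Neither CACGTG (E-box, 6.02% of all windows) nor TGANTCA (AP-1, 6.75%) occurred in any of the 3. The matches are a description of letters only.

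Cbl (ENSMUSG00000034342.9, GRCm38 chromosome 9, 44142976 to 44234049, minus strand) was nearly absent from WT and present in each FYN-KO library. It had 1, 0 and 1 counts in WT and 199, 425, 256 and 254 counts in FYN-KO, which is 0.0783, 0 and 0.0839 CPM against 21.2, 40.9, 28.0 and 28.3 CPM. The groups did not overlap. A count of 0 in WT replicate 2 allows up to 0.183 CPM (3 counts) by counting error alone. The pooled FYN-KO rate was 614 times the pooled WT rate, with a 95% exact interval of 170 to 5079 that covers counting error only. The edgeR log2 fold change was 8.71 ± 1.74 (approximate SE, adjusted p = 0.0121), a size that rests on 2 WT counts. The exact two-sided permutation p of the CPM was 0.0286, the smallest that 3 against 4 libraries allow. Cbl passed without each library in turn (edgeR adjusted p 0.00455 to 0.0312) and in DESeq2 (8.95e-12), and it did not pass in limma-voom with quality weights (adjusted p = 0.366), which called 2.62% of all genes, nor with the replicate number as a block (edgeR adjusted p = 0.259). In each of these fits Cbl entered through its FYN-KO counts alone. Cblb, a relative of Cbl with the same enzymatic role, was without a count in WT, against 2.45, 1.54, 0.985 and 3.23 CPM in FYN-KO. The FYN-KO mean was 8.15 times 0.252 CPM, the level of 3 counts in WT replicate 3. The edgeR adjusted p was 0.0122, and 0.0505 without WT replicate 1.

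The pattern of Cbl was shared by many genes. Over the 7 libraries, the tested genes most like it by Pearson correlation of log2 of CPM plus 1 were Plcb3, a phospholipase C, Lincppara, a non-coding RNA, and Nit2, an amidase, with r = 0.9997, 0.9994 and 0.9993. Of the 9350 genes compared, 847 had r of 0.95 or more, and the same 7 libraries and their 2 groups enter each of these correlations.

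Csk (ENSMUSG00000032312.7, chromosome 9, 57626646 to 57653631, minus strand) stood at 149, 52.3 and 114 CPM in WT, against 45.2, 48.3, 80.0 and 58.9 CPM in FYN-KO. WT replicate 2 lay among the FYN-KO libraries, so the groups overlapped. The means differed 1.81-fold (105 ± 48.9, SD, n = 3, against 58.1 ± 15.8, n = 4), with a log2 fold change of -0.98 ± 0.72 (edgeR adjusted p = 0.433) and an exact permutation p of 0.143. The fold change was negative in each of 15 other fits, from -1.38 to -0.46, and passed in none.

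Pag1 (ENSMUSG00000027508.15, chromosome 3, 9687479 to 9833679, minus strand), the recruiter of Csk, was a gene of 1 WT library. It had 1, 610 and 0 counts in WT, or 0.0783, 37.3 and 0 CPM, and 19, 3, 17 and 19 counts in FYN-KO, or 2.02, 0.289, 1.86 and 2.12 CPM. WT replicate 2 was above all FYN-KO libraries and the other 2 WT libraries were below them. The log2 fold change was -2.70 ± 2.04 (edgeR adjusted p = 0.450), and without WT replicate 2 it was 4.84 (adjusted p = 0.112). The sign of the difference therefore rested on that library.

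Ptpra (ENSMUSG00000027303.18, chromosome 2, 130450278 to 130556124, plus strand) stood at 18.6, 149.5 and 142 CPM in WT, against 126, 89.7, 89.2 and 127 CPM in FYN-KO. WT replicate 1 was the lowest of the 7 libraries and the other 2 WT libraries were the highest. The means were 103 ± 73.6 and 108 ± 21.6 CPM, with a log2 fold change of -0.05 ± 0.78 (edgeR adjusted p = 0.98) that turned positive with library sizes alone (0.06) and without WT replicate 3 (0.60). An antisense gene, 4930473A02Rik, shares exonic bases with Ptpra and reached at most 52 counts in a library, and the sources used here do not give the strand of counting. For no other of the 10 genes does GENCODE M21 list a gene that shares exonic bases.

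The ratio of Csk, which closes Src family kinases, to Ptpra, which opens them, did not separate the groups. Within a library this ratio does not depend on the scaling. Csk counts over Ptpra counts gave 8.03, 0.35 and 0.80 in WT, against 0.357, 0.538, 0.897 and 0.463 in FYN-KO. WT replicate 1 had the highest ratio and WT replicate 2 the lowest. The log2 ratio was 1.30 lower in FYN-KO (-0.91 ± 0.56 against 0.39 ± 2.34, exact permutation p = 0.4), and the difference was 0.0070 without WT replicate 1.

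Ptk2 and Ptk2b were found together in FYN-KO and apart in WT. Ptk2 (ENSMUSG00000022607.17, chromosome 15, 73205102 to 73423280, minus strand) had 1138, 2428 and 3 counts in WT, or 89.1, 148 and 0.252 CPM. Ptk2b (ENSMUSG00000059456.13, chromosome 14, 66153257 to 66281052, minus strand) had 0, 0 and 420 counts in the same libraries, or 0, 0 and 35.3 CPM. Thus WT replicates 1 and 2 held Ptk2 with no Ptk2b, and WT replicate 3 held Ptk2b with 3 counts of Ptk2. The zeros allow up to 0.235 and 0.183 CPM of Ptk2b, and the 3 counts of Ptk2 have a 95% exact interval of 0.0519 to 0.736 CPM, for counting error only. In FYN-KO, Ptk2 stood at 50.4, 56.3, 44.6 and 34.98 CPM and Ptk2b at 43.8, 56.7, 59.0 and 28.6 CPM. The count of Ptk2 over that of Ptk2b was 1.15, 0.992, 0.755 and 1.22 in the 4 FYN-KO libraries.

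**Figure D2:**
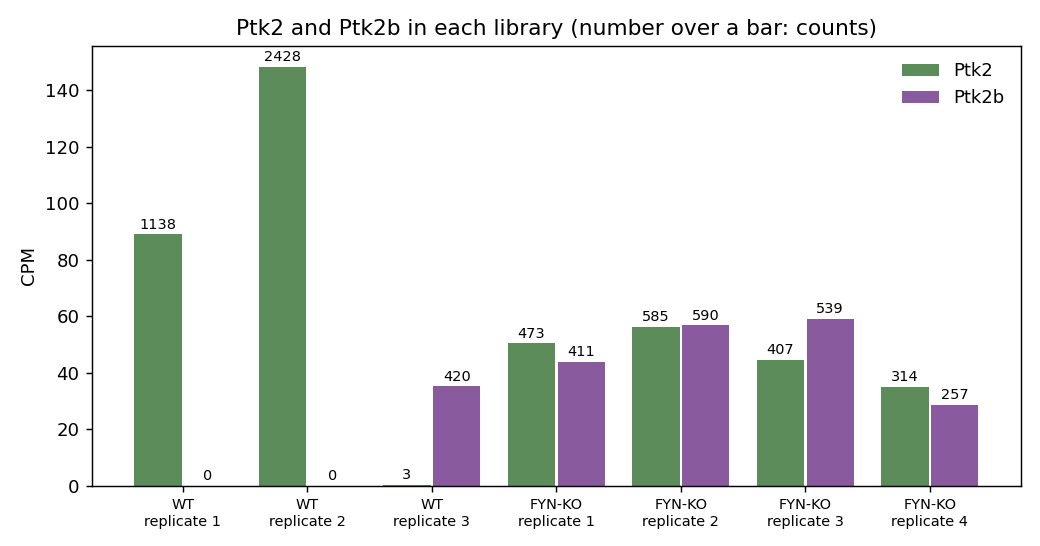
CPM of Ptk2 (green) and Ptk2b (purple) in each of the 7 libraries, with the count over each bar. WT replicates 1 and 2 have Ptk2 alone, WT replicate 3 has Ptk2b and 3 counts of Ptk2, and the 4 FYN-KO libraries have both.

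Neither kinase passed the test between the groups. Ptk2 had a log2 fold change of -0.61 ± 1.36 (edgeR adjusted p = 0.834, exact permutation p = 0.457) and was 0.03 without WT replicate 2. Ptk2b had a log2 fold change of 1.59 ± 2.31 (edgeR adjusted p = 0.733, exact permutation p = 0.0857). Without WT replicate 3, the other WT libraries have no count of Ptk2b and the adjusted p was 0.00778. The log2 ratio of Ptk2 to Ptk2b, with 1 added to each count, was 10.15, 11.25 and -6.72 over the WT libraries. It was 0.20, -0.01, -0.40 and 0.29 over those of FYN-KO (exact permutation p of the means = 0.314). All FYN-KO values lay near 0, and all WT values far from it, to both sides. Among all tested genes with a mean of 10 CPM or more, 32.6% of WT values were of 3 counts or fewer, against 1.59% in FYN-KO. How often other gene pairs have such ratios was not counted. WT replicate 3 also stood apart from the other WT libraries in endothelial markers (737 CPM summed over 5 genes, against 0.626 and 20.0). It did so in fibroblast markers (545 CPM over 5 genes, against 1.17 and 81.0) and mural markers (355 CPM over 4 genes, against 40.3 and 53.3). The same held for steroid-producing markers (285 CPM over 6 genes, against 4.46 and 0) and erythroid markers (665 CPM over 4 genes, against 25.6 and 100). The FYN-KO libraries stood at 285 to 335 CPM in the endothelial markers. In the sums of the other sets named here they were above all WT libraries. Single genes did not all follow these sums. Acta2, a mural marker, was lowest in WT replicate 3 (1.34 CPM), against up to 53.3 CPM in the other WT libraries. Pdgfrb, of the same set, reached 314 CPM in WT and at most 54.6 CPM in FYN-KO. Pecam1, an endothelial marker, reached 2.69 CPM in WT, against 87.7 to 136 CPM in FYN-KO. Of the fibroblast markers in WT, Col1a1 and Col1a2 reached 134 and 408 CPM, Dcn reached 2.52 CPM and Lum had no count. The 8 microglia and macrophage markers summed to 334, 174 and 414 CPM in WT, against 272 to 379 CPM in FYN-KO. This sum joins genes of opposite direction. Cx3cr1 and Tmem119, each with 1 WT count, passed as higher in FYN-KO (edgeR adjusted p = 0.0121 and 0.0125). Csf1r, C1qb, Aif1 and Cd68 had higher means in WT and C1qa in FYN-KO, and these did not pass. The part of these cells in the values of Ptk2 and Ptk2b was not tested.

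Pxn (ENSMUSG00000029528.18, chromosome 5, 115506676 to 115555987, plus strand) had the tightest WT values of the 10 genes apart from Cbl. It stood at 150.4, 136 and 168 CPM in WT (151 ± 16.2, n = 3), against 46.6, 53.8, 40.6 and 28.9 CPM in FYN-KO (42.4 ± 10.5, n = 4). The lowest WT library was above the highest FYN-KO library, and the means differed 3.57-fold. The log2 fold change was -1.95 ± 0.61 (edgeR adjusted p = 0.0544, unadjusted p = 0.0130, exact permutation p = 0.0286). Pxn passed in edgeR without WT replicate 1, 2 or 3 (adjusted p = 0.0386, 0.0210 and 0.0446), with a minimum of 50 counts in 3 libraries (0.0474) and in DESeq2 (0.00205). It did not pass without any 1 FYN-KO library (0.123 to 0.156). The genes most like Pxn over the 7 libraries were Cdk17, a kinase, Ints7, a subunit of the Integrator complex, and Akt2, a kinase of insulin signalling (each r = 0.99), and 57 of 9350 genes had r of 0.95 or more.

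Bcar1 (ENSMUSG00000031955.10, chromosome 8, 111710474 to 111743809, minus strand) stood at 81.1, 59.1 and 230.3 CPM in WT (123 ± 93.1), against 36.8, 21.0, 15.7 and 24.2 CPM in FYN-KO (24.4 ± 8.97). The groups did not overlap, and WT replicate 3 was far above the other WT libraries. The means differed 5.06-fold, WT above FYN-KO (log2 fold change -2.60 ± 0.86, edgeR adjusted p = 0.0597, exact permutation p = 0.0286). It passed without WT replicate 1 or 2 (0.0378 and 0.0169) and in DESeq2 (0.00721), and without WT replicate 3 it stood at -1.44 (0.145). The genes most like Bcar1 were Atp5g2, a subunit of the mitochondrial ATP synthase, Jam3, a junctional adhesion protein (each r = 0.99), and Ube2r2, a ubiquitin-conjugating enzyme (r = 0.98), and 26 of 9350 genes had r of 0.95 or more.

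Arhgap35 (ENSMUSG00000058230.12, chromosome 7, 16493719 to 16614993, minus strand) stood at 249, 178 and 64.7 CPM in WT (164 ± 92.7), against 36.1, 37.03, 52.9 and 49.6 CPM in FYN-KO (43.9 ± 8.57). WT replicate 3 was close above the FYN-KO libraries, without overlap. The means differed 3.73-fold, WT above FYN-KO (log2 fold change -1.88 ± 0.64, edgeR adjusted p = 0.0682, exact permutation p = 0.0286). It passed without WT replicate 3 (-2.18, 0.0136) and in DESeq2 (0.00935), and not without WT replicate 1 or 2 (0.117 and 0.0541). Bcar1 was highest and Arhgap35 lowest in the same WT library, while Pxn hardly differed there.

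Cttn (ENSMUSG00000031078.15, chromosome 7, 144435733 to 144471009, minus strand) was the 1 substrate with a higher mean in FYN-KO. It stood at 33.0, 149.8 and 69.6 CPM in WT (84.1 ± 59.7), against 179, 211, 83.2 and 216 CPM in FYN-KO (172 ± 61.6). FYN-KO replicate 3 lay among the WT libraries and the other FYN-KO libraries were above all of WT. The log2 fold change was 1.02 ± 0.65 (edgeR adjusted p = 0.35, exact permutation p = 0.114). It was positive in each of 15 other fits (0.64 to 1.42) and passed in none.

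Summed over the adaptors and substrates Pxn, Bcar1, Cttn and Arhgap35, the level was 513, 522 and 533 CPM in WT, against 298, 322, 192 and 319 CPM in FYN-KO. The WT sums were close to each other although Bcar1 and Arhgap35 differed 3.90-fold and 3.84-fold between WT libraries. Summed over the regulators Csk, Pag1, Ptpra and Cbl, the level was 168, 239 and 256 CPM in WT, against 179 to 217 CPM in FYN-KO, with overlap. These sums are descriptions without a test.

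**Figure D3:**
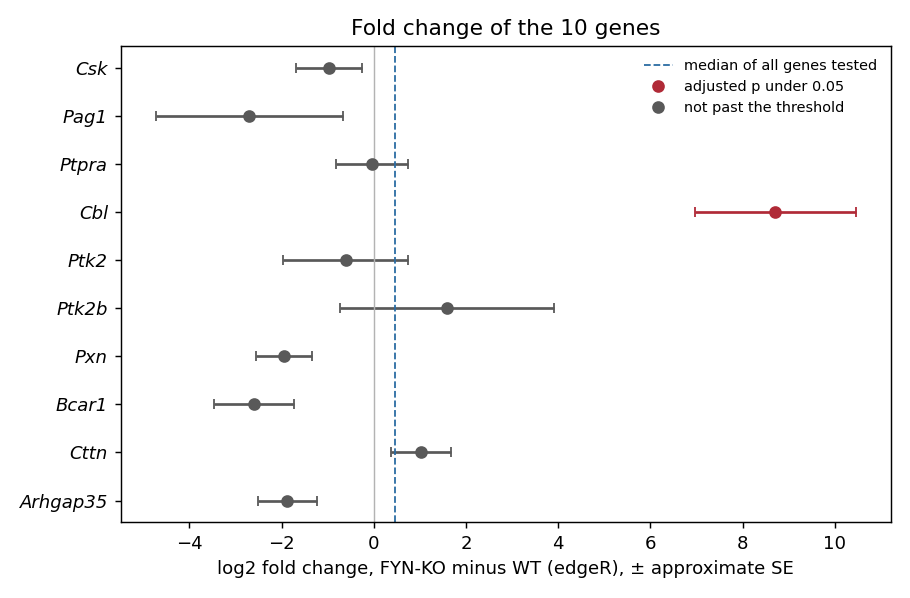
Log2 fold change, FYN-KO minus WT, of each of the 10 genes from edgeR with bars of 1 approximate SE, with the median of all genes tested as a dashed line at 0.45. Cbl (red, 8.71) is past the threshold of 0.05, and the widest bars are those of Ptk2b (2.31), Pag1 (2.04) and Cbl (1.74).

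The calls on Pxn, Bcar1 and Arhgap35 depended on the fit. DESeq2 called 4 of the 10 genes, Cbl as higher and these 3 as lower, while it called 34.2% of all genes, and it gave no adjusted p for Pag1. A filter for detection in both groups (10 counts or more in 2 WT and in 3 FYN-KO libraries) left 6446 genes, among them 7 of the 10, without Pag1, Cbl and Ptk2b. There edgeR called none of the 7, with 3 at an unadjusted p under 0.05, and 2.96% of all genes. Pxn, Bcar1 and Arhgap35 stood at -1.56, -2.12 and -1.57 in that fit (adjusted p = 0.204, 0.233 and 0.259), where the median of all genes was -0.20.

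**Figure D4:**
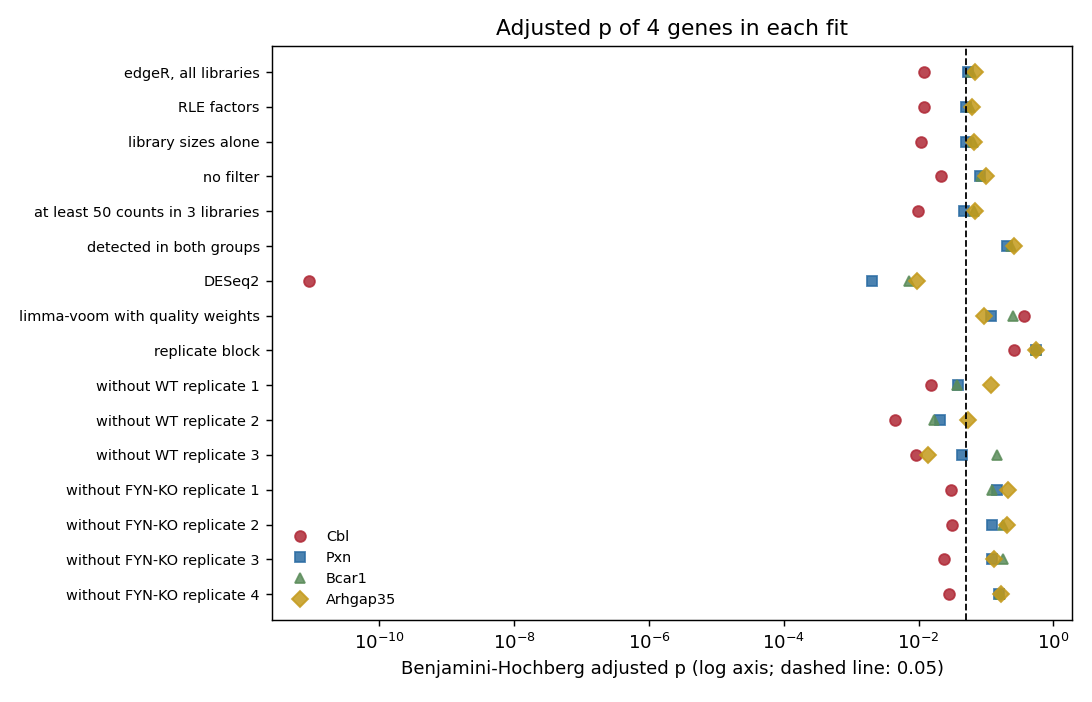
Adjusted p (log axis) of Cbl, Pxn, Bcar1 and Arhgap35 in the edgeR fit of all libraries and in 15 other fits, with the threshold of 0.05 as a dashed line. Cbl lies left of the line except in limma-voom and with the replicate block, and is not tested among genes detected in both groups. Pxn, Bcar1 and Arhgap35 lie left of it in DESeq2 and each without 1 or more of the WT libraries, Pxn also with a minimum of 50 counts, and all 3 reach 0.549 to 0.556 with the replicate block.

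Other genes of the pathway were counted in 5 lists, against 19.0% higher and 3.51% lower among all genes tested. In all 5 lists, each gene called higher in the fit of all libraries had under 10 counts in each WT library. These genes passed the filter on low counts through FYN-KO alone. Of 6 tested Src family kinases, 2 rose (Frk and Yes1) and 1 fell, which was Fyn itself. Frk was without a count in WT, against 20.4 ± 4.78 CPM in FYN-KO, and Yes1 had 1 WT count. Of 16 tested other regulators of Src family kinases, 1 rose, the ligase Cblb above, and none fell (median log2 fold change 0.10). With library sizes alone 2 rose, and with 1 library left out 0 to 3 rose and 0 to 1 fell.

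Of 24 tested paralogs and adaptor partners of the 10 genes, 2 rose, 2 fell and 20 did not pass (median -0.10). With 1 library left out, 2 to 5 rose and 1 to 3 fell. Pak1, a kinase downstream of Rac and Cdc42, fell from 433, 110 and 190.3 CPM in WT to 15.1, 9.04, 10.2 and 18.2 CPM in FYN-KO, 18.6 times lower (log2 fold change -4.33 ± 0.73, edgeR adjusted p = 0.0121). Rapgef1, an exchange factor that binds the adaptor Crk, stood at 513, 244 and 467 CPM in WT, against 103, 110, 154 and 106 CPM in FYN-KO (edgeR adjusted p = 0.0227, and 0.0663 to 0.0703 without FYN-KO replicate 1, 2 or 4). Bcar3, a binding partner of Bcar1, had 1 WT count and 6.29, 11.3, 2.41 and 20.6 CPM in FYN-KO, a pooled ratio of 415 (95% exact interval 74.0 to 16433). Lpxn (leupaxin), a relative of Pxn, was without a count in WT, against 6.18, 1.25, 2.85 and 5.46 CPM in FYN-KO. The FYN-KO mean was 15.6 times the level of 3 counts in WT replicate 3. Nedd9, a relative of Bcar1, did not pass (edgeR adjusted p = 0.971, and 0.00807 without WT replicate 3), at 0.157, 0.0611 and 51.6 CPM in WT, against 14.0 to 27.1 CPM in FYN-KO. Like Ptk2b, it was found in WT replicate 3 and nearly absent from the other WT libraries.

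Of 23 tested structural genes of focal adhesions, 2 rose (Fermt3 and Tns2), 2 fell (Lims2 and Parvb) and 19 did not pass (median -0.23). With 1 library left out, 2 to 4 rose and 2 to 3 fell. Lims2, an adaptor of integrin-linked kinase, stood at 369, 353 and 593 CPM in WT, against 9.06, 8.66, 16.2 and 24.8 CPM in FYN-KO, 29.8 times lower (log2 fold change -5.05 ± 0.65, edgeR adjusted p = 0.0121). Parvb, which binds the same complex, fell from 245 ± 132 to 24.9 ± 13.4 CPM. Fermt3, a kindlin of blood cells, was without a count in WT, against 5.97, 8.56, 1.31 and 10.6 CPM in FYN-KO. The FYN-KO mean was 26.2 times the level of 3 counts in WT replicate 3.

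Of 16 tested integrin subunits, 7 rose and none fell, and each of the 7 had under 10 counts in each WT library. These 7 thus passed the filter on low counts through FYN-KO alone. With 1 library left out, 6 to 9 rose and 0 to 1 fell. Itgb3 had 1 count in each WT library and stood at 49.4, 70.2, 55.6 and 69.2 CPM in FYN-KO, a pooled ratio of 839 (95% exact interval 287 to 4071). Itga5 and Itga2 were without a count in WT, against 4.09 ± 1.57 and 7.08 ± 5.88 CPM in FYN-KO. Over the 16 subunits the median log2 fold change stood at 5.12. It was 4.02 with the genes without a WT count set at their fold over the level of 3 counts in WT replicate 3. Among the 5 subunits detected in both groups, none passed. That filter asks for 10 counts or more in 2 WT libraries, so it left out the 7 by its rule and cannot test them. The fibroblast and mural markers above were also higher in each FYN-KO library than in any WT library by their sums, and their part in the adhesion and integrin counts was not tested.

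**Figure D5:**
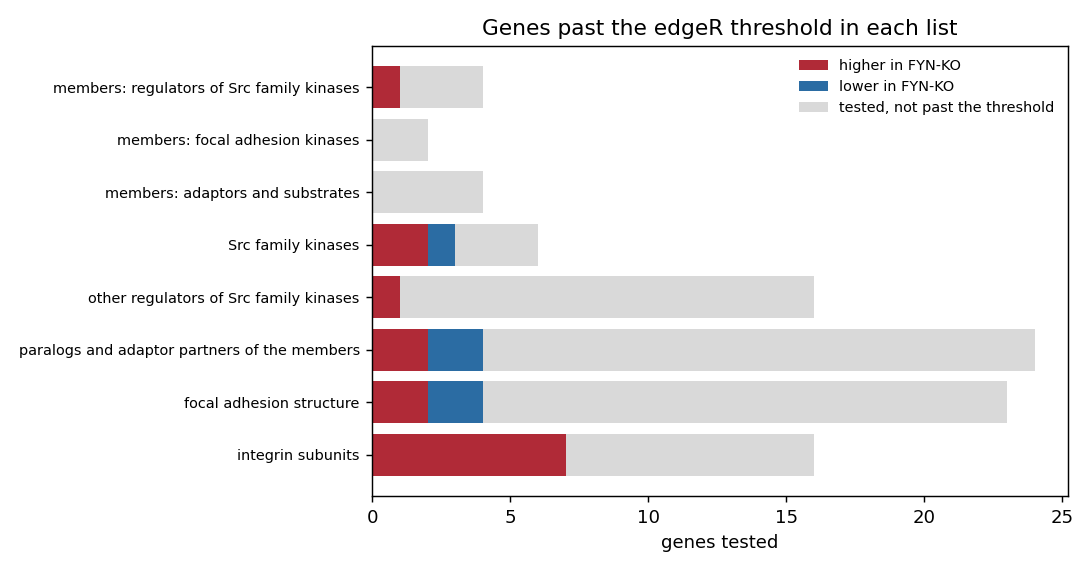
Number of genes tested in the 10 genes by role (top 3 bars) and in 5 lists of the pathway, split into genes higher in FYN-KO, genes lower and genes not past the edgeR threshold. Integrin subunits have 7 higher and no lower genes of 16, and the 24 paralogs and adaptor partners have 2 higher and 2 lower.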

How the data were processed

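The authors deposited 1 table of whole-number counts per gene and library. They call it modified, and the sources used here do not say in what way. Per the labels, the RNA was column-purified and the kit was Lexogen QuantSeq. Per the submitters' processing notes, Bowtie2, bedtools, DESeq2 1.32.0 and mm10 (GRCm38) were used, with no word on annotation or strand. The column of WT replicate 3 was tied to the WT group alone, because a different WT sample bears the column's name as title. Entries that repeat an earlier symbol (46) were kept as genes of their own.

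Genes were filtered with filterByExpr (at least 10 counts in enough libraries, 15 in all) and scaled by TMM factors, and FYN-KO was compared with WT across all genes by the edgeR 4.0.16 quasi-likelihood F test in R 4.3.3, two-sided. A gene passed at a Benjamini-Hochberg adjusted p below 0.05. The approximate SE divides the size of the log2 fold change by the root of F. CPM were compared by exact two-sided permutation over 35 arrangements (smallest p 0.0286), and these p-values are printed without adjustment for the 10 genes. With Benjamini-Hochberg adjustment over the 10, the exact permutation p was 0.0714 for each of Cbl, Pxn, Bcar1 and Arhgap35. None of the 10 genes was below 0.05 by it. All p-values set a difference between the groups against the spread between these libraries, and the fitted models share information on that spread across genes. Intervals are 95% exact, and a count of 0 allows up to 3 counts, both for counting error only. A fold against WT without a count sets the FYN-KO mean over the highest such floor of the WT libraries. It covers neither the counting error of that mean nor the spread between libraries. Other fits were RLE factors, library sizes alone, other filters, DESeq2 1.42.0, limma-voom (limma 3.58.1), a replicate block and leaving out each library. The fit was tested on simulated data with the spread of the FYN-KO libraries alone, so that test does not cover the wider WT spread. Positions are from GENCODE M21.

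The genes, the lists and the alternatives were chosen with earlier results of these data known. Genes named besides the 10 are Fyn, up to 3 genes past the threshold by p in each list described, and the 3 genes most like each of the 3 genes of smallest p, among those with a mean of 10 CPM or more. Rapgef1, Nedd9 and Tns2 were named after their values were seen. No 2 libraries held identical values. One further list of genes is not reported here.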

Additional observations from a re-analysis of the deposited data

Results flagged for a closer look

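Pag1 in FYN-KO replicate 2, at 0.289 CPM (3 counts), was far from the other FYN-KO libraries, which stood at 1.86 to 2.12 CPM. Its gap to the nearest library was 0.860 of the range of the 4, above Dixon's 95% critical value for 4 samples. Of 13 quantities checked in the FYN-KO libraries this was the 1 beyond that value. Chance gives about 1 in 20 for each quantity checked, not for the 13 together. At 3 counts the 95% exact interval, for counting error only, runs from 0.0595 to 0.843 CPM.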

How the results depend on the processing

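Of the 10 genes, 1 was higher and 0 were lower in FYN-KO with RLE factors, library sizes alone and no filter, as in the fit reported. Genes higher numbered 0 among genes detected in both groups, where Cbl was not tested. They numbered 0 in limma-voom and with the replicate block, and 1 to 2 with 1 library left out. Genes lower numbered 1 with a minimum of 50 counts, 3 in DESeq2 and 0 to 2 with 1 library left out. Over all genes tested, higher and lower genes numbered 52 and 139 among those detected in both groups, 24 and 320 in limma-voom, 188 and 135 with the replicate block, 3564 and 918 in DESeq2, and 2190 to 4585 and 247 to 839 with 1 library left out. With the replicate number as a block, Cbl stood at 8.91 (adjusted p = 0.259, edgeR). Libraries with the same number did not deviate together (correlations across genes of the deviations from the group means -0.014, -0.00016 and -0.021), so the numbers do not pair them. The replicate block gives FYN-KO replicate 4, the only library of that number, a term of its own, so that library adds nothing to the comparison. With more terms for the same libraries, that fit also has less to judge the spread by. The cause of these differences between fits was otherwise not tested, apart from the smaller number of genes among those detected in both groups.

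Directions turned for 3 genes whose tests did not pass, and for 1 ratio. Pag1 had a log2 fold change of 3.37 with the replicate block and -3.28 to 4.84 with 1 library left out. Ptpra had 0.064 with library sizes alone, 0.32 among genes detected in both groups, 0.23 in limma-voom, 0.29 with the replicate block and -0.55 to 0.60 with 1 library left out. Ptk2 had 0.95 in limma-voom, 0.52 with the replicate block and -1.20 to 0.030 with 1 library left out. In CPM, FYN-KO minus WT, Ptpra stood at -3.50 with TMM library sizes and -37.8 to 27.7 with 1 library left out, Pag1 at -17.1 to 1.53 and Ptk2 at -72.1 to 1.89. The log2 ratio of Csk to Ptpra differed by -2.25 to 0.0070 with 1 library left out, and that of Ptk2 to Ptk2b by -10.68 to -1.70. With 1 library left out the exact permutation test cannot go below 0.0667 or 0.1, so it makes no calls there. Leaving Rn45s out of the library total changed no direction and no call of the 10 genes. By counting error alone, a gene without a count in WT can at these depths stand at up to 0.252 CPM. This floor does not cover the spread between WT libraries.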
